A study of Mus musculus with 14 samples.

Results

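The Tet and Gadd45 genes are 2 families that have been tied to the removal of DNA methylation. They were described here in mouse tail fibroblasts before and during reprogramming to pluripotency. The 6 members Tet1, Tet2, Tet3, Gadd45a, Gadd45b and Gadd45g were taken by gene symbol from RNA sequencing tables of 22026 genes, and all 6 were listed above 0 in all 4 RNA libraries. Their levels were set beside the overall methylation lost by cells of the same genotype label, from RRBS (reduced representation bisulfite sequencing). This method cuts DNA at a CpG-containing restriction site and so samples mainly CpG-dense regions.

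The 3 Tet proteins are dioxygenases that oxidise methylated cytosine in steps, using iron and 2-oxoglutarate. The oxidised base is then diluted by replication or cut out by the glycosylase Tdg and replaced by base excision repair. Tet1 and Tet2 are the family members of embryonic stem cells, and Tet3 is known for its role in the fertilised egg and in differentiated tissues. The 3 Gadd45 proteins are small stress-response proteins without known enzyme activity. They bind the kinase Map3k4, cyclin B1-Cdk1 and Pcna, are induced by DNA damage and growth arrest, and have been proposed to link repair enzymes to demethylation.

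The 4 RNA libraries were 1 of tail fibroblasts labelled Wildtype, 1 of fibroblasts labelled AID-null, and 1 of each genotype after 3 weeks of forced expression of the factors Oct4, Sox2, Klf4 and cMyc. The same 4 states had 1 RRBS library each. A further 3 RRBS libraries per genotype were clones. These had been picked at 2 weeks and were profiled at 3 weeks, and they had no RNA library. The labels give no animal, age, sex, strain or null allele, and do not say how the factors were delivered, so bulk RNA differences had no replicate check and carry no p-value. Expression is in FPKM (fragments per kilobase of transcript, relative to all mapped fragments), and differences are on the log2(FPKM + 1) scale, which understates changes of low genes. A difference of at least 1, with at least 1 FPKM in either library, is called 2-fold below.

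The genotype is given below only as a label. The libraries of the 2 labels differed in sex-linked RNA: Xist stood at 456 and 149 FPKM in the libraries labelled Wildtype against 0.990 and 1.78 FPKM in those labelled AID-null, and the Y-linked Eif2s3y at 0 and 0 against 184 and 274 FPKM. Sex and genotype label therefore cannot be told apart. None of the 6 members lies on a sex chromosome. A part of sex in their differences between the labels, or in those of methylation, was not tested. All 10 fibroblast markers were above 0 in both fibroblast libraries, and 10 pluripotency markers summed to 4.53 and 9.64 FPKM there and to 7397 and 7032 FPKM at 3 weeks.

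Tet1 showed the largest change of the 6 genes and Gadd45g the largest in the other direction, and the direction of every member was the same under both genotype labels. Tet1 and Tet2 were higher at 3 weeks than in fibroblasts and Tet3 lower. All 3 Gadd45 genes were lower at 3 weeks, but Gadd45a and Gadd45b stayed closer to their fibroblast levels in the library labelled AID-null.

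Tet1 stood at 2.07 FPKM in the fibroblasts labelled Wildtype and 3.84 FPKM in those labelled AID-null. At 3 weeks it stood at 169 and 127 FPKM. Both 3-week libraries lay far above both fibroblast libraries. The ratio of 3 weeks to fibroblasts was 81.6 under the Wildtype label and 33.0 under the AID-null label, or 5.79 and 4.72 on the log2 scale. The change of Tet1 exceeded that of 99.1% of all genes compared under the Wildtype label and of 98.7% under the AID-null label. From a place above 42.2% and 44.3% of all genes by level in the fibroblasts, it moved above 88.6% and 86.6% of them.

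Tet2 followed in the same direction with a smaller change. It stood at 17.0 and 19.6 FPKM in the fibroblasts labelled Wildtype and AID-null, and at 79.4 and 62.7 FPKM at 3 weeks. These were ratios of 4.68 and 3.19, or differences of 2.16 and 1.62 on the log2 scale. Tet3 went the other way, from 27.1 to 17.5 FPKM under the Wildtype label and from 33.0 to 11.4 FPKM under the AID-null label. Its difference of −0.61 did not reach 2-fold under the first label, and its difference of −1.45 did under the second.

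Gadd45g, the most abundant of the 6 in the fibroblasts, stood at 673 and 593 FPKM there and at 48.8 and 55.1 FPKM at 3 weeks. The levels at 3 weeks were 0.0725 and 0.0930 of those in the fibroblasts, or −3.76 and −3.40 on the log2 scale. The change lay above that of only 1.33% and 0.895% of the genes compared. Gadd45b differed more between the labels than any other member. It fell to 0.269 of its level under the Wildtype label, from 180 to 48.6 FPKM, and stood at 0.697 of it under the AID-null label, at 227 and 158 FPKM. The log2 differences were −1.87 and −0.52, and the second did not reach 2-fold. Gadd45a, the classical p53 target of the family, had the smallest changes of the 3 Gadd45 genes. Its levels were 381 and 228 FPKM for Wildtype and 369 and 318 FPKM for AID-null, with differences of −0.74 and −0.22 that did not reach 2-fold.

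Under the Wildtype label 2 of the 6 members were 2-fold higher at 3 weeks (Tet1 and Tet2) and 2 were 2-fold lower (Gadd45b and Gadd45g). Among all 15196 genes compared, 27.0% were 2-fold higher and 17.7% lower, with a median of 0.16. In the AID-null pair 2 members were higher (Tet1 and Tet2) and 2 lower (Tet3 and Gadd45g), beside 21.3% higher and 17.6% lower of 15076 genes, with a median of −0.05. With so many genes past 2-fold, counts of 2 in 6 are little different from the background. The sizes for Tet1 and Gadd45g are what stood outside the middle 90% of all genes, as the plot of member differences shows.

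**Figure D1:**
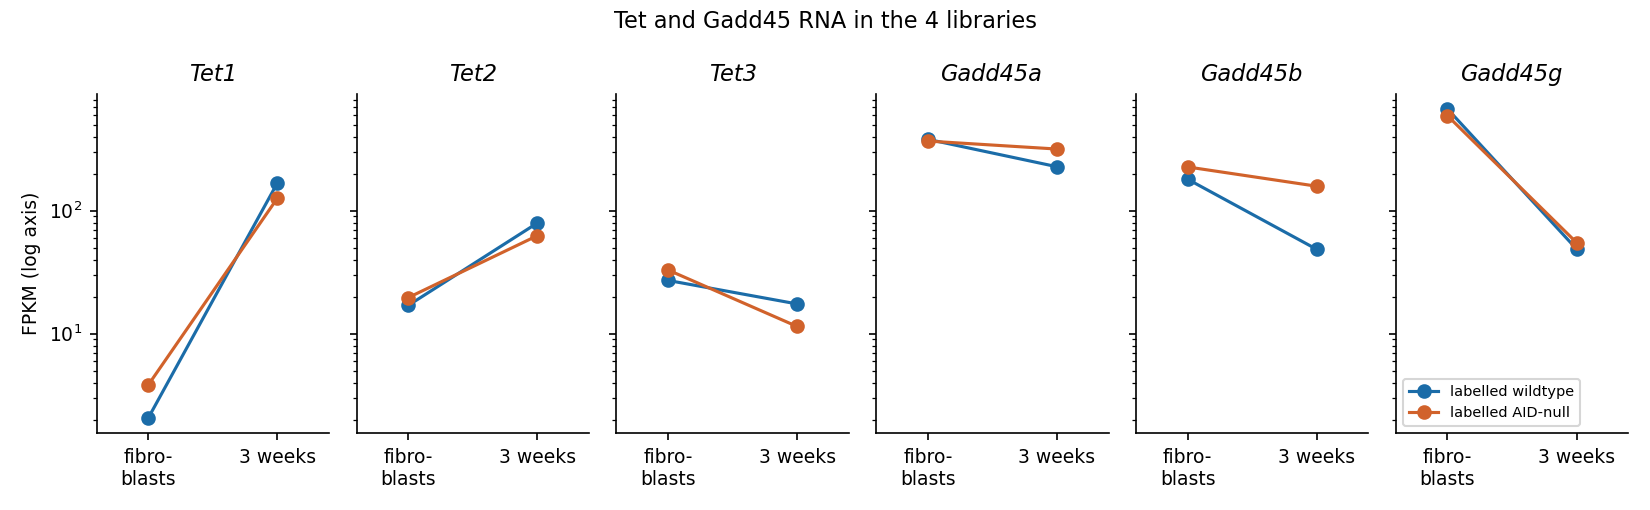
Level of each of the 6 genes in FPKM (log axis) in fibroblasts and at 3 weeks of reprogramming, 1 RNA library per point, with a line joining the 2 libraries of each genotype label. Tet1 and Tet2 are higher at 3 weeks under both labels, Gadd45g is lower under both, and the lines of Gadd45b part at 3 weeks, at 48.6 and 158 FPKM.

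The makeup of each family changed along with its sum. Summed over the 3 Tet genes, FPKM stood at 46.1 and 266 in fibroblasts and at 3 weeks under the Wildtype label, and at 56.4 and 201 under the AID-null label. Tet3 made up 58.7% and 58.4% of the sum in the fibroblasts labelled Wildtype and AID-null, and Tet1 made up 4.49% and 6.80%. At 3 weeks Tet1 made up 63.5% and 63.1%, and Tet3 6.57% and 5.70%. The Tet2 share stayed between 29.9% and 36.8% in all 4 libraries. These shares differed little between the labels at either time, although the sums did.

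The Gadd45 sum went down from 1235 to 325 FPKM under the Wildtype label and from 1189 to 531 FPKM under the AID-null label, a ratio between the labels at 3 weeks of 1.63. In the fibroblasts Gadd45g made up 54.5% and 49.9% of it. At 3 weeks Gadd45a was the largest part, with 70.1% and 59.8%. The share of Gadd45b was 14.6% and 14.9% in the libraries labelled Wildtype, and went from 19.1% to 29.8% in those labelled AID-null.

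The order of the 6 levels was the same in both fibroblast libraries, with Gadd45g highest, then Gadd45a, Gadd45b, Tet3, Tet2 and Tet1. At 3 weeks Gadd45a was highest and Tet3 lowest under both labels. Gadd45b stood below Tet1, Tet2 and Gadd45g under the Wildtype label, where Gadd45g at 48.8 FPKM and Gadd45b at 48.6 FPKM were practically level. In the library labelled AID-null Gadd45b stood above all 3 of them. With 1 library per state, no spread is known against which neighbours in these orders could be told apart.

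In the fibroblasts, before reprogramming, no member differed 2-fold between the labels. The differences, AID-null minus Wildtype, were 0.66 for Tet1, 0.20 for Tet2, 0.27 for Tet3, −0.05 for Gadd45a, 0.33 for Gadd45b and −0.18 for Gadd45g. The Tet1 value rests on levels of 2.07 and 3.84 FPKM. Of 13788 genes compared, 4.26% were 2-fold higher and 1.34% lower in the library labelled AID-null.

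At 3 weeks Gadd45b was the only member that differed 2-fold between the labels. It stood 3.26 times higher in the library labelled AID-null, a log2 difference of 1.68 that exceeded that of 96.1% of genes. Of 15204 genes compared, 9.76% were 2-fold higher and 11.6% lower. The 3 Tet genes were all lower in the library labelled AID-null, at ratios of 0.751 for Tet1, 0.789 for Tet2 and 0.656 for Tet3, and none reached 2-fold. Gadd45a stood at 1.39 times and Gadd45g at 1.13 times the Wildtype level. The median gene differed by −0.18 in this comparison, and by −0.0017 and 0.02 after upper-quartile and median-of-ratios scaling of the libraries. Those scalings brought the Tet1 difference from −0.41 to −0.22 and −0.20, and the Gadd45b difference to 1.87 and 1.89. They turned the sign of no member in any comparison. The split of all genes did turn, from 1484 higher and 1757 lower to 1865 and 1228 after upper-quartile scaling.

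Set side by side, the reprogramming changes under the AID-null label minus those under the Wildtype label were −1.07 for Tet1, −0.54 for Tet2 and −0.84 for Tet3. They were 0.52 for Gadd45a, 1.35 for Gadd45b and 0.35 for Gadd45g. So the Tet genes all had the lower value and the Gadd45 genes all the higher value under the AID-null label. The Tet1 and Gadd45b values passed 2-fold, as did 13.9% of 15624 genes in the lower and 9.68% in the higher direction. The Tet1 value did not pass after either scaling, at −0.90 and −0.88, nor with a pseudocount of 5, at −0.72. It joins a difference between the labels of −0.41 at 3 weeks with one of 0.66 in the fibroblasts. The larger of these rests on the low levels of 2.07 and 3.84 FPKM. The split over all genes went from 1513 higher and 2173 lower to 1852 and 1657 after upper-quartile scaling. This quantity is built from the same 4 libraries as the differences above and adds no further measurement.

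**Figure D2:**
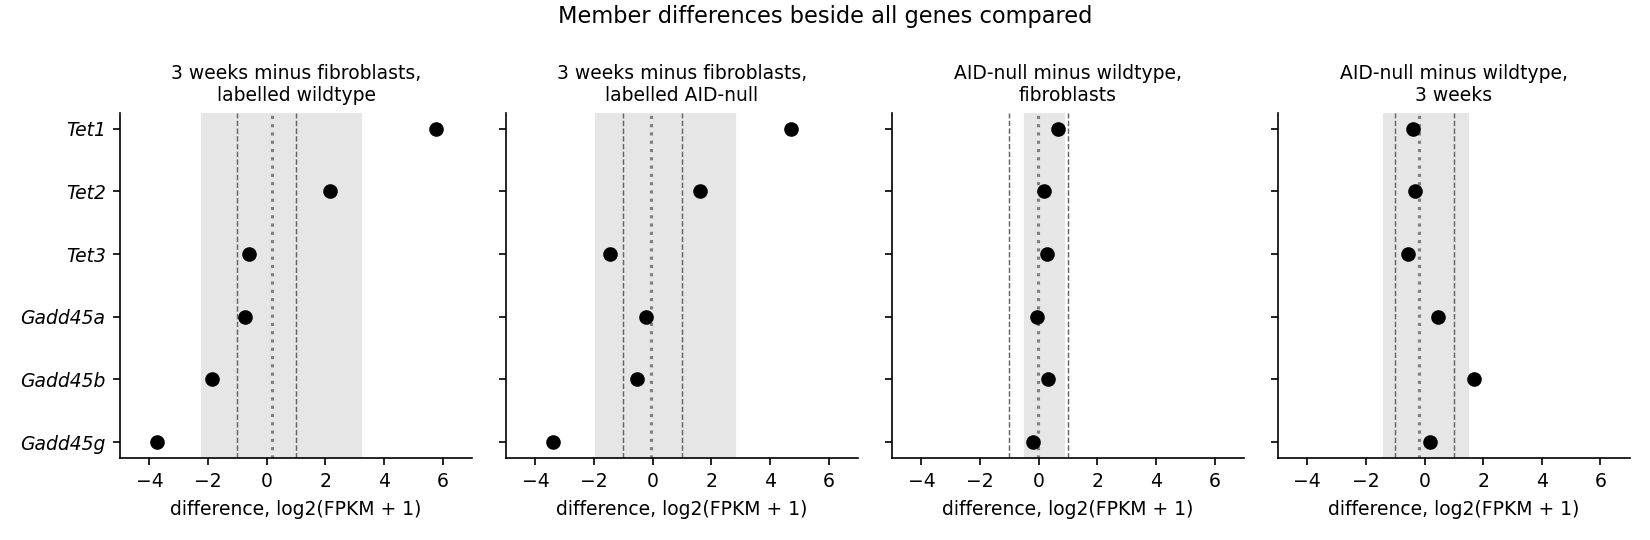
Difference of each gene in log2(FPKM + 1) in 4 comparisons (points), with the 5th to 95th percentile of all genes compared (grey band), their median (dotted line) and the 2-fold limits (dashed lines). Tet1 and Gadd45g lie outside the band in both reprogramming comparisons, and Gadd45b lies just outside it at 3 weeks between the labels.

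The cells measured at 3 weeks were not alike in other markers, and in bulk RNA fewer cells of a type and less RNA per cell cannot be told apart. The 10 fibroblast markers summed to 93739 and 6117 FPKM in fibroblasts and at 3 weeks under the Wildtype label, and to 102057 and 24172 FPKM under the AID-null label. At 3 weeks the sum in the library labelled AID-null was 3.95 times that in the one labelled Wildtype. Of the 10 markers 9 were 2-fold higher and none lower, beside 9.76% and 11.6% of all genes. The 10 pluripotency markers had a ratio of 0.951, with 2 of 10 2-fold lower, beside the same 11.6% of all genes. The 10 macrophage markers had a ratio of 3.41, with sums of 421 and 1434 FPKM. Of the 421 FPKM in the library labelled Wildtype, Laptm5 gave 265 and Cd68 gave 112 FPKM. In that library 5 of the markers, including the defining markers C1qa and Tyrobp, were listed at 0. In the same comparison Gadd45b stood at 3.26 times and Gadd45g at 1.13 times. The part of fibroblasts or macrophages in the differences of the members was not tested.

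The macrophage list differed between the labels before reprogramming too. In the fibroblasts its sums were 1646 and 2836 FPKM. In the library labelled AID-null 9 of the 10 markers were 2-fold higher and none lower, beside 4.26% and 1.34% of all genes. Gadd45b differed by 0.33 on the log2 scale there. At 3 weeks 8 of the macrophage markers were higher and none lower, beside 9.76% and 11.6% of all genes. Lyz2, at 38.4 and 903 FPKM, made up most of the 3-week difference in the sum, and Laptm5 went the other way, at 265 and 184 FPKM. At 3 weeks muscle markers summed to 192 and 101 FPKM in the libraries labelled Wildtype and AID-null, of which the single gene Mylpf gave 188 and 95.4 FPKM. Endothelial markers summed to 79.9 and 98.1 FPKM, of which Pecam1 gave 67.8 and 91.1 FPKM. Schwann cell markers summed to 30.9 and 74.5 FPKM, and keratinocyte markers to 55.0 and 3.38 FPKM.

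The overall methylation loss was then measured in the RRBS libraries of the same labels. Over 113548 autosomal tiles of 1000 bp, each with at least 3 cytosines read in all 4 bulk libraries, mean methylation went from 56.5% in the fibroblasts to 41.5% at 3 weeks under the Wildtype label. For AID-null it went from 55.7% to 48.6%. The changes were −15.1 and −7.19 percentage points, so that 73.4% and 87.1% of the fibroblast level was retained. The variation between cultures is unknown with 1 library per state. PCR reads without molecular identifiers are not independent molecules, so intervals here and below cover counting error only.

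By tile, 36273 tiles were lower and 2563 higher at 3 weeks under the Wildtype label, 31.9% and 2.26% of all tiles. With the AID-null label 12316 were lower and 2660 higher, 10.8% and 2.34%. A tile was called where it differed by 25 points or more and Fisher's exact test on its summed reads gave a p under 0.05 after Benjamini-Hochberg adjustment, which compares libraries and not conditions. The shares of tiles that gained methylation were nearly equal, and the shares that lost it were not.

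How the loss was averaged decided which label lost more. Taking each cytosine once, the changes were −9.49 points under the Wildtype label and −5.0 under the AID-null label. With all reads pooled over the 1369099 cytosines, the levels went from 29.6% to 23.8% and from 32.6% to 25.5%, changes of −5.78 and −7.17 points, which turns the order. Counting error on these pooled levels was at most 0.0065 points, with each read counted once per cytosine as if independent. Pooling weights each cytosine by its reads, and a tile mean gives sparsely read regions as much weight as dense ones. The weights come from each library's own coverage, so a pooled change can hold shifts of coverage as well as of methylation. Pooled and cytosine means were 29.6% and 33.5% in the fibroblasts labelled Wildtype and 23.8% and 24.0% at 3 weeks. Under the AID-null label they were 32.6% and 33.1%, then 25.5% and 28.1%.

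**Figure D3:**
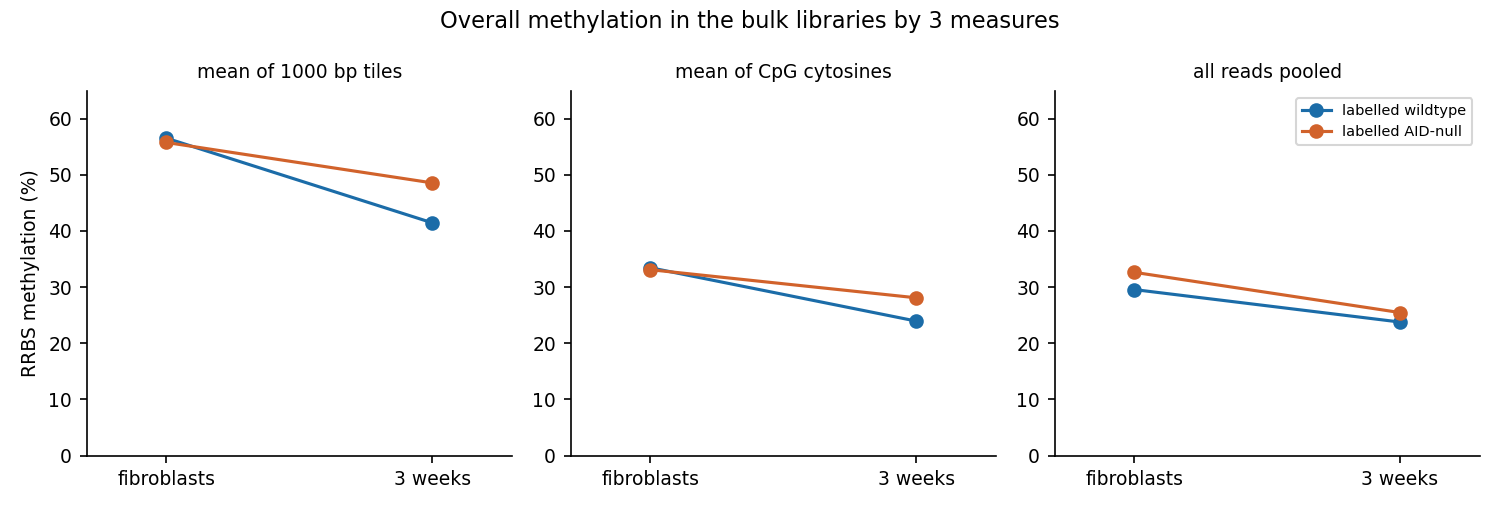
Methylation in percent in the 4 bulk RRBS libraries, 1 library per point, as a mean over 1000 bp tiles, a mean over cytosines and all reads pooled. The line labelled Wildtype falls more steeply in the tile and cytosine means, and the line labelled AID-null falls more steeply in pooled reads, with changes of −7.17 against −5.78 points.

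Set beside this loss, the RNA of the same label read as follows. Under the Wildtype label, with 73.4% of tile methylation retained, the Tet sum was 5.76 times and the Gadd45 sum 0.264 times its fibroblast level. Under the AID-null label, with 87.1% retained, the Tet sum was 3.56 times and the Gadd45 sum 0.447 times its fibroblast level. The larger tile loss thus stood beside the larger Tet ratio and the smaller Gadd45 ratio, and with pooled reads the larger loss stood beside the smaller Tet ratio and the larger Gadd45 ratio. Only 2 genotype labels with 1 RNA and 1 RRBS library per state exist, so no relation across samples can be computed. The RNA and DNA libraries are not stated to come from the same culture, and the fibroblast markers above differed between the 3-week RNA libraries.

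The clones place the bulk RRBS levels. Over the 108306 tiles read in all 10 libraries, the bulk libraries at 3 weeks stood at 40.9% under the Wildtype label and 47.9% under the AID-null label. The 3 clones labelled Wildtype stood at 44.1%, 45.8% and 46.2%, and those labelled AID-null at 46.9%, 42.8% and 54.1%. The clone groups overlapped, and the lowest and highest clones both carried the AID-null label. Member RNA was not measured in the clones.

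The members' promoters could be read in the RRBS libraries. The 300 bases around each start, from 250 before to 50 after, were taken from RefSeq on GRCm38.p6 for all 6 members. They were placed on the cytosines of the files, which use mm9, by matching the spacing and strand of the CpGs, without converting coordinates. Tet1 matched 17 of its 34 possible cytosines, Tet2 61 of 114, Tet3 28 of 44, Gadd45a 14 of 28, Gadd45b 25 of 48 and Gadd45g 19 of 42. No other place matched more than 12. Positions are given as bases from the start site, and no file coordinate is printed.

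The Tet1 and Tet2 promoters are shown because they carry the only fibroblast methylation of note and the densest CpG pattern of the 6. Capitals mark CpGs with at least 1 strand read in at least 1 RRBS library, and each sequence is the 250 bases before the start on the gene's strand, at chr10:62887325-62887574 (minus strand) for Tet1 and chr3:133544391-133544640 (minus strand) for Tet2 in GRCm38.p6.
Tet1: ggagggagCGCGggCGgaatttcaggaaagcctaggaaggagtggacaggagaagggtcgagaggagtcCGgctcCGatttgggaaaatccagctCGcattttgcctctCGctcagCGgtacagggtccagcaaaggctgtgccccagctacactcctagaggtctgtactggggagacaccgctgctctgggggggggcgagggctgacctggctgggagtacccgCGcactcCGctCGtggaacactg
Tet2: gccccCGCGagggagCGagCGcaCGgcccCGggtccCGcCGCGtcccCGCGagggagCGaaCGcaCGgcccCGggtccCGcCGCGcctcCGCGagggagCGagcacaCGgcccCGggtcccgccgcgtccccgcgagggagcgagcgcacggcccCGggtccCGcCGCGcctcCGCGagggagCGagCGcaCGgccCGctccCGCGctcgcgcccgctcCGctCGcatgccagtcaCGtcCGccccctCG
The Tet2 window holds 57 CpGs in 300 bases, a number that only 0.152% of 32851 RefSeq promoters reach. The Tet1 window holds 17, reached by 31.4% of promoters, and the median promoter has 7.

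Tet1 was the only member whose promoter carried over 2% methylation in the bulk libraries. Over its 8 cytosines shared by all 10 libraries, the mean was 5.59% in the fibroblasts labelled Wildtype and 5.55% in those labelled AID-null. At 3 weeks it was 0.386% and 1.03%. In pooled reads, 38 of 522 were methylated in the fibroblasts labelled Wildtype (7.28%, 95% Wilson interval 5.35% to 9.83%) and 5 of 1045 at 3 weeks (0.478%, 0.205% to 1.12%). In the AID-null pair 53 of 792 were methylated in the fibroblasts (6.69%, 5.15% to 8.65%) and 11 of 915 at 3 weeks (1.20%, 0.673% to 2.14%). Pooling counts a read once at each cytosine it covers, so these counts are not separate reads and the intervals are too narrow. As computed, the intervals of fibroblasts and 3 weeks do not overlap under either label, and those of the labels overlap at both times.

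Among 9620 autosomal promoters with at least 3 shared cytosines, 10.0% had at least 2% methylation in the fibroblasts labelled Wildtype and 11.1% in those labelled AID-null. A level at or above that of Tet1 was found in 5.83% and 6.29% of them. A promoter at least 2 points lower at 3 weeks, as Tet1 was, made up 6.75% under the Wildtype label and 7.33% under the AID-null label. Only a promoter with at least 2% in the fibroblasts could fall so far. Of these, 649 of 962 did so under the Wildtype label and 705 of 1070 under the AID-null label. A loss of this size was thus common among them. The median promoter stood at 0.113% and 0.139% in the fibroblasts.

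The Tet1 signal came from few cytosines. In the fibroblasts labelled Wildtype all 38 methylated reads lay on the cytosine at position −181, which was 44.7% methylated in 85 reads (34.6% to 55.3%). The other 7 shared cytosines had none. In the fibroblasts labelled AID-null position −181 stood at 14.3% of 119 reads, −175 at 20.8% of 120 reads and −141 at 9.24% of 119 reads. At 3 weeks position −181 was at 3.09% under the Wildtype label and at 8.27% of 133 reads under the AID-null label. A cytosine at −15 was methylated in 8 of 10 reads in the fibroblasts labelled AID-null and was read in only 7 libraries. So the similar means of the labels hide a different placement of the methylated reads, in 1 library each.

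**Figure D4:**
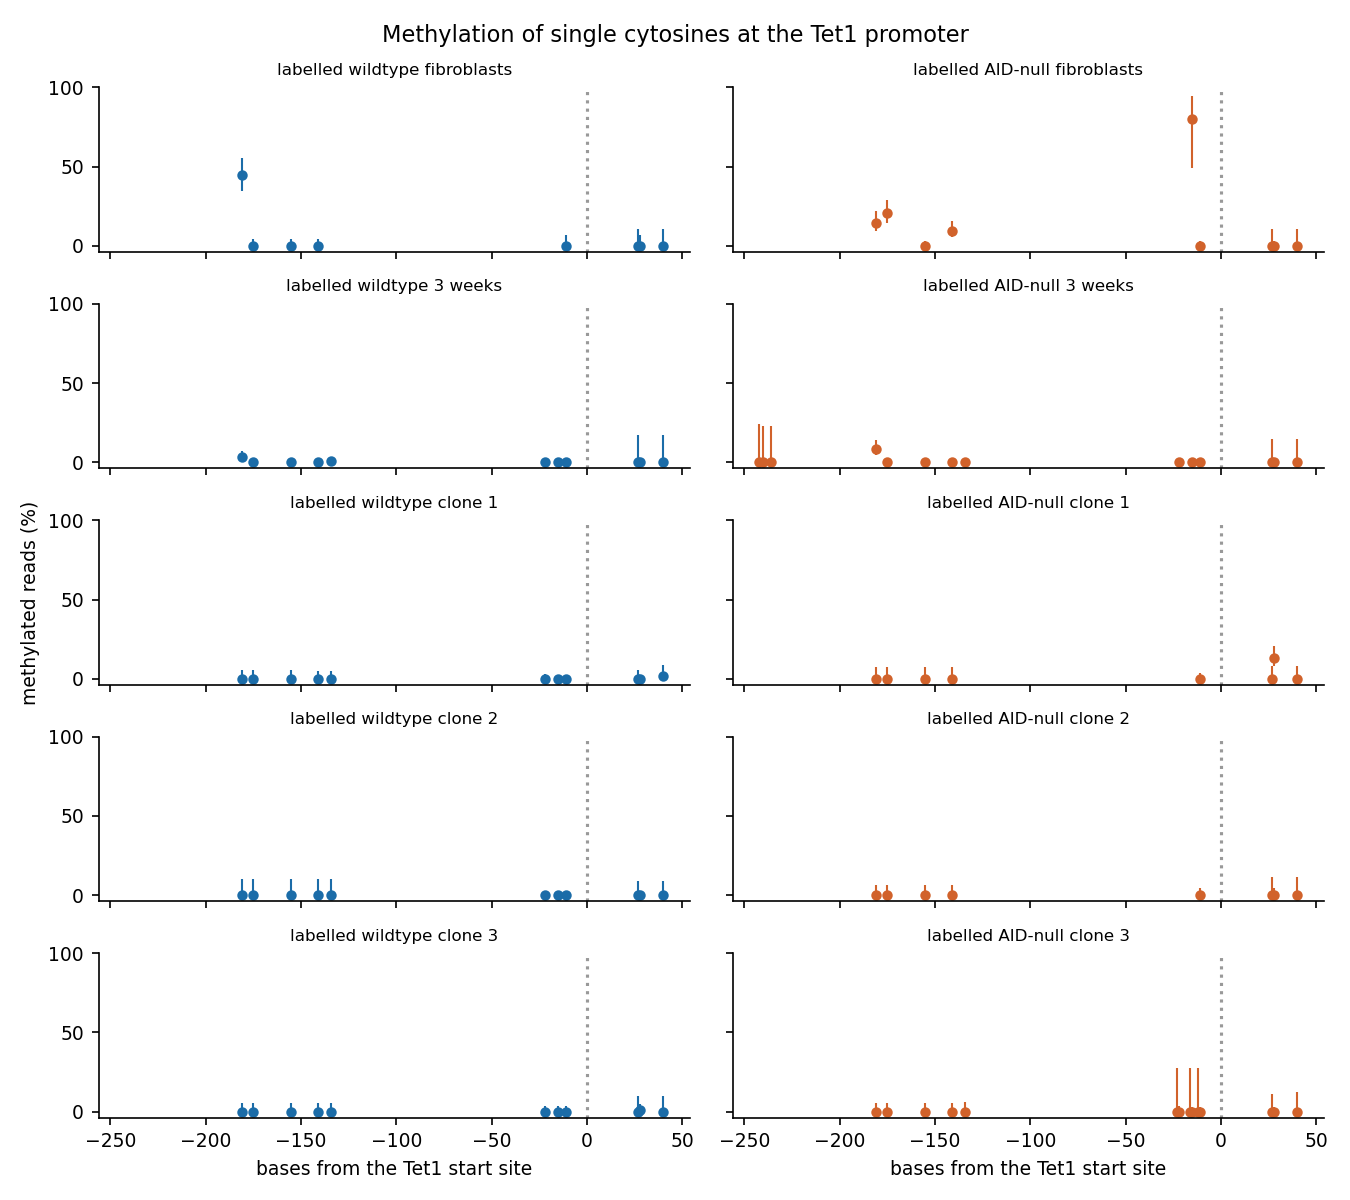
Percent of methylated reads at each cytosine of the Tet1 promoter against its distance from the start site in bases, with 95% Wilson intervals, for the 10 RRBS libraries. The fibroblasts labelled Wildtype show 1 high cytosine at −181 and those labelled AID-null show lower values at −181, −175 and −141 and a thinly read one at −15, while most cytosines at 3 weeks and in the clones sit at 0.

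In the clones the Tet1 promoter stood at 0.195%, 0% and 0.111% under the Wildtype label and at 1.64%, 0% and 0% under the AID-null label. The 1.64% came from position 28, where 14 of 107 reads were methylated. The means were 0.102% ± 0.098 (SD, n = 3) and 0.545% ± 0.944 (SD, n = 3), and the groups overlapped. An exact two-sided permutation test of the difference gave p = 1, adjusted p = 1 over the 6 promoters. The smallest p that 3 against 3 clones allow is 0.1.

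The other 5 promoters carried little methylation. Tet2 stayed at or below 0.136% over 47 shared cytosines and Gadd45g at or below 0.412% over 4. Tet3 reached 0.949% in 1 AID-null clone, where position −130 stood at 16.1% of 149 reads, and Gadd45a reached 0.921% in another. Gadd45b reached 2.13% in Wildtype clone 3, where positions −56, −35 and −13 each had 26 methylated reads of 281 to 283. Those positions lie on the same strand, so the same 26 reads may have been counted at each. All but Gadd45b of these 5 stayed under 2% in all 10 libraries, as did 76.9% of all promoters measured. The clone groups overlapped for all 6 members, beside 12.4% of promoters whose clone groups did not overlap, and the exact two-sided permutation p was between 0.5 and 1 for each, with every adjusted p at 1.

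For Gadd45g, whose RNA changed by −3.76 and −3.40 on the log2 scale, the 4 shared promoter cytosines lay between −11 and 29. Their mean was 0% and 0.412% in the fibroblasts and 0% and 0.0554% at 3 weeks, under the Wildtype and AID-null labels. No cytosine before −11 was read in a bulk library, so most of the window was not measured there. In pooled reads 0 of 348 and 0 of 1729 reads were methylated under the Wildtype label, with upper Wilson bounds of 1.09% and 0.222%. Pooling counts a read once per cytosine. Upper bounds of the single shared cytosines were 3.89% to 5.66% in the fibroblasts labelled Wildtype. The Gadd45b promoter, read in 1966 and 2551 reads under the Wildtype label, stood at 0.241% and 0.0394%, and at 0% in both bulk libraries labelled AID-null.

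The Gadd45a and Gadd45g promoters share short motifs and are shown for these. Both hold the octamer ATTTGCAT, the letters that POU factors such as Oct1 and Oct4 bind. The search covered both strands of the 300 bases. Of 32851 RefSeq promoters of this length 1.74% hold the octamer. Capitals mark the octamer, CCAAT (37.4% of promoters) and TATAAA (13.6%), none of which overlap each other, in the 250 bases before the start at chr6:67037408-67037657 (minus strand) for Gadd45a and chr13:51846425-51846674 (plus strand) for Gadd45g in GRCm38.p6.
Gadd45a: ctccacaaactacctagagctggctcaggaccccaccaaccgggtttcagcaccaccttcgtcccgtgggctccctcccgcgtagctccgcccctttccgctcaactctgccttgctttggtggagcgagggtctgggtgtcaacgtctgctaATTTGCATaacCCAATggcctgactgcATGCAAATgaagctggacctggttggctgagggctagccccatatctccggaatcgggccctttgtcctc
Gadd45g: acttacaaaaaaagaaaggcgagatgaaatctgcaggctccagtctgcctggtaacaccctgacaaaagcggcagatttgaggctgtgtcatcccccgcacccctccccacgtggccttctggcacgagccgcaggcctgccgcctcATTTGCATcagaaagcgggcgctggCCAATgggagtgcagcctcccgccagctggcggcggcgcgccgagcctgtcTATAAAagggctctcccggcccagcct
Gadd45a has the octamer at −97 to −90 and, on the opposite strand, at −70 to −63. Gadd45g has it at −103 to −96, and a TATAAA at −27 to −22. Gadd45b has TATAAA at −46 to −41 and 2 CCAAT, and shares the letters CACGTG (7.15% of promoters) with Gadd45g. None of the 3 Tet windows holds the octamer, TATAAA or CACGTG. Each holds GGGCGG (35.7% of promoters), as do Gadd45a and Gadd45b. These are matches of letters and not binding sites, and a part of the motifs in the RNA changes was not tested. Both genes that hold the octamer were lower at 3 weeks. Their differences were −0.74 and −0.22 for Gadd45a and −3.76 and −3.40 for Gadd45g, under the Wildtype and AID-null labels.

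The enzymes that complete Tet-dependent demethylation were measured as a list of 13 genes for oxidised-base removal and base excision repair. Under the Wildtype label 7 were 2-fold higher at 3 weeks and none lower, with a median of 1.29, beside 27.0% higher and 17.7% lower of all genes. For AID-null, 6 were higher and none lower, with a median of 0.59, beside 21.3% and 17.6%. Tdg, the glycosylase that removes the bases made by Tet enzymes, was not among them, with 10.7 and 7.90 FPKM for Wildtype and 8.32 and 8.35 FPKM for AID-null. Ung, which removes uracil such as deamination leaves, went from 9.08 to 203 FPKM for Wildtype and from 13.0 to 163 FPKM for AID-null. Parp1, a sensor of strand breaks, went from 92.7 to 606 FPKM for Wildtype and from 99.4 to 615 FPKM for AID-null.

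A pair of genes of this list differed 2-fold between the labels at 3 weeks, in opposite directions. The abasic-site nuclease gene Apex1 stood at 606 FPKM under the Wildtype label and 209 FPKM under the AID-null label, from 174 and 178 FPKM in the fibroblasts. The glycosylase gene Neil2 stood at 20.7 and 55.9 FPKM. The list's median between the labels at 3 weeks was 0.07, above the −0.18 of all genes, of which 9.76% were higher and 11.6% lower.

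Genes that regulate Tet enzymes or supply their cofactors made a list of 13, of which 12 passed the FPKM minimum in the reprogramming comparisons. Under the Wildtype label 5 were 2-fold higher and 1 lower, with a median of 0.76, and under the AID-null label 6 were higher and 1 lower, with a median of 1.01. The shares over all genes were 27.0% and 17.7%, and 21.3% and 17.6%. Prdm14, a pluripotency factor that works with Tet proteins, was listed at 0 in both fibroblast libraries and at 23.4 and 8.00 FPKM at 3 weeks under the Wildtype and AID-null labels. Sall4, another pluripotency factor, was listed at 0 and then at 223 and 76.7 FPKM. Dppa3, which shields methylated DNA from Tet3 in the egg, was listed at 0 and then at 14.5 and 33.6 FPKM, the reverse order. Slc23a1, a vitamin C transporter gene, stood at 37.5 and 11.4 FPKM at 3 weeks, from 0.770 and 0.510 FPKM. Idh1, which makes 2-oxoglutarate, was the member that was lower, from 442 to 168 FPKM for Wildtype and from 377 to 186 FPKM for AID-null. Its log2 difference of −1.02 under the AID-null label was no longer 2-fold after either scaling.

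Between the labels at 3 weeks 3 genes of this list were 2-fold lower under the AID-null label (Slc23a1, Prdm14 and Sall4) and 1 higher (Dppa3), with a median of 0.04, beside 11.6% lower and 9.76% higher of all genes. Tet1 and Tet2 were lower in the same comparison, but not 2-fold.

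A list of the opposing DNA methyltransferases and their partners held Dnmt1, Dnmt3a, Dnmt3b, Dnmt3l, Uhrf1, Uhrf2 and Hells. Most stood higher at 3 weeks, while Uhrf2 had differences of −0.36 and −0.10 under the Wildtype and AID-null labels. Of 7, 6 were 2-fold higher under the Wildtype label, with a median of 4.17, and 5 under the AID-null label, with a median of 2.71. Of all genes 27.0% and 21.3% were 2-fold higher. Dnmt3b, a de novo methyltransferase, went from 3.20 to 389 FPKM for Wildtype and from 4.78 to 193 FPKM for AID-null. Dnmt3l, its cofactor, went from 7.64 to 785 FPKM for Wildtype and from 7.28 to 692 FPKM for AID-null. Uhrf1, which guides Dnmt1 to replicated DNA, went from 16.8 to 330 FPKM for Wildtype and from 28.1 to 189 FPKM for AID-null. At 3 weeks the list had a median of −0.63 between the labels, and Dnmt3b alone was 2-fold lower under the AID-null label, a call that both scalings removed. So this list, by its median, was higher at 3 weeks along with Tet1 and Tet2, and the median change was smaller under the AID-null label. Of the 7 changes, 4 were over 2-fold smaller, beside 13.9% of all genes in that direction. After either scaling 3 were, and the 13.9% is the share without scaling. The median difference of the changes was −1.08, and −0.18 over all genes.

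Gadd45 partners, 14 genes of kinase signalling, cell cycle control and excision repair, differed less. Under the Wildtype label 3 were 2-fold higher (Cdk1, Ccnb1 and Pcna) and 1 lower (Xpa), with a median of 0.37, near or below the 27.0% and 17.7% of all genes. Under the AID-null label 2 were higher (Cdk1 and Ccnb1) and none lower, with a median of 0.15, below the 21.3% and 17.6% of all genes. Ccnb1, the cyclin that partners Cdk1, went from 12.9 to 244 FPKM for Wildtype and from 22.1 to 144 FPKM for AID-null, while its binding partners of the Gadd45 family were lower. Pcna, the replication clamp, went from 143 to 464 FPKM for Wildtype and from 170 to 249 FPKM for AID-null. Map3k4, the kinase the Gadd45 proteins activate, stood at 22.3 and 41.9 FPKM and at 22.8 and 44.5 FPKM, below 2-fold. Cdkn1a, the p53-induced cell cycle inhibitor, had 1206 and 754 FPKM for Wildtype, and 651 and 740 FPKM for AID-null.

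Genes of p53 and stress responses, known inducers or co-induced genes of the Gadd45 family, made a list of 15. Under the Wildtype label 3 were 2-fold higher (Trp53, Mdm2 and Brca1) and none lower, with a median of 0.02, both below the 27.0% and 17.7% of all genes. Under the AID-null label 1 was higher (Brca1) and 3 lower (Ddit3, Atf4 and Egr1), with a median of 0.09, beside 21.3% and 17.6% of all genes. Between the labels at 3 weeks 2 were higher under the AID-null label, as Gadd45b was, and 4 lower, beside 9.76% and 11.6% of all genes. The 2 higher ones were Atf3, a stress-induced transcription factor gene, at 24.2 and 68.9 FPKM, and Tnfaip3, a target and inhibitor of NF-kB signalling, at 4.72 and 12.0 FPKM. The lower ones were Trp53, at 606 and 235 FPKM, Sesn2, at 329 and 143 FPKM, Ddit3, at 384 and 118 FPKM, and Atf4, at 1145 and 555 FPKM. Of these 4, upper-quartile scaling left 3 and median-of-ratios scaling left 2 past 2-fold. Nfkbia, another NF-kB target, stood at 53.3 and 87.3 FPKM, below 2-fold. The list's median was −0.32, beside −0.18 over all genes, with members on both sides.

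**Figure D5:**
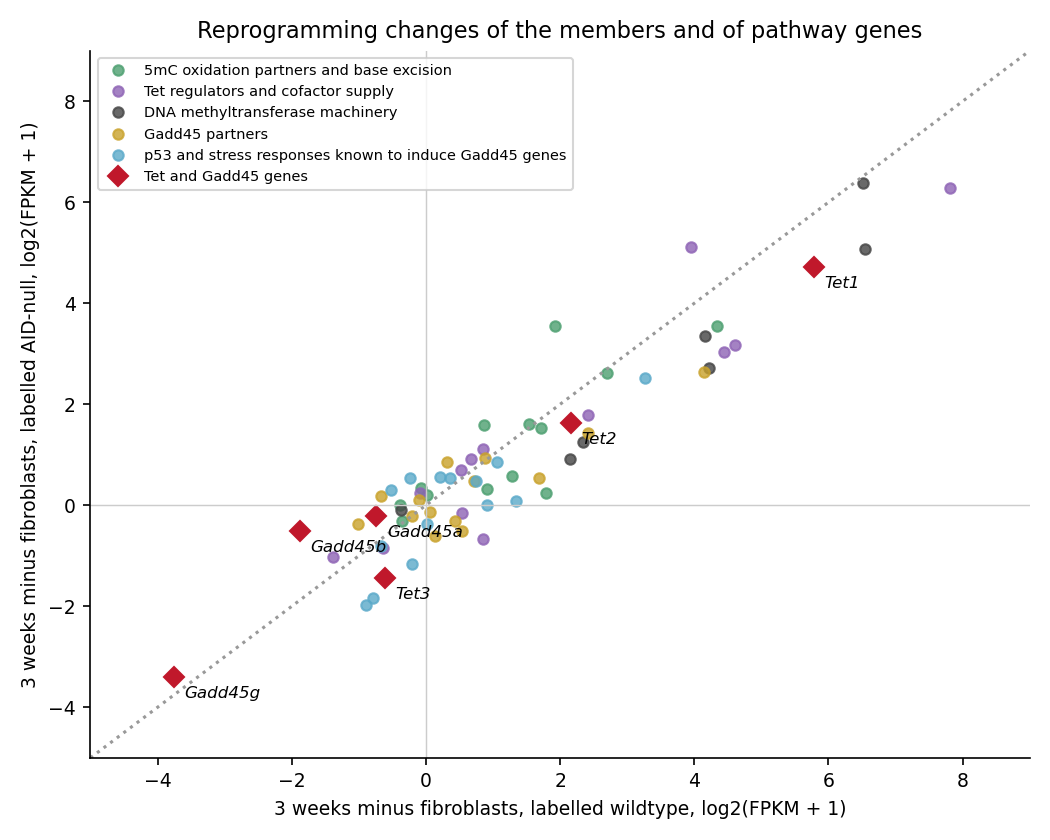
Reprogramming change of the 6 members (diamonds) and of the genes of 5 pathway lists (points), in log2(FPKM + 1), under the Wildtype label (horizontal) and the AID-null label (vertical), with a dotted line of equal change. Tet1 lies among genes of the methyltransferase machinery and Tet regulators, below the line at 5.79 and 4.72. Gadd45b lies above the line at −1.87 and −0.52, and Gadd45g lies lowest.

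The genes with the nearest pattern to each member were found by the root-mean-square difference in log2(FPKM + 1) after centring over the 4 libraries, among 13560 genes with at least 5 FPKM in some library. With 4 points per gene this is a description. Nearest to Tet1 were Jag2, a Notch ligand gene, at a distance of 0.057, Hook1 at 0.17 and Nup210 at 0.19. Jag2 was listed at 0 and 49.8 FPKM for Wildtype and at 0.60 and 38.7 FPKM for AID-null. Tet2 was nearest to Nrarp at 0.027, Rest at 0.050 and Pcnt at 0.051, and Tet3 to Zfp647 at 0.016, D8Ertd82e at 0.045 and Tmem164 at 0.045. For Gadd45a these were Dcaf8 at 0.017, Numbl at 0.023 and Ppp3cb at 0.026. Gadd45b had Gcnt4 at 0.059, Nrbp2 at 0.074 and Gpr176 at 0.078. Gadd45g was nearest to Rep15 at 0.097, Fgfr2 at 0.12 and Cml3 at 0.14.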

How the data were processed

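Per the labels' protocols, RNA was extracted with Trizol and DNA with phenol chloroform, and per the submitters' processing notes TopHat, Cufflinks, Bismark, methylKit and the build mm9 were used, and their versions, filters and annotation are not given in the sources used here. Deposited RNA tables hold FPKM per gene, normalised by the authors, summing to 1708870 to 2012350 per library. Low values shared no common step, so the RNA depth could not be recovered and count models were left out. The deposited RRBS tables hold, per the file headers, read coverage as a count per CpG cytosine and the percent of methylated and converted reads. Coverage summed over cytosines, which counts a read at each cytosine it covers, was 222945430 to 296572452 per library. Per cytosine the minimum was 10 and the median 82 to 125 reads.

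From these, log2(FPKM + 1) differences were computed and called 2-fold at 1 or more with at least 1 FPKM in either library. Methylated reads were recovered from coverage and percent, cytosines above the 99.9th coverage percentile were dropped, and 1000 bp tiles with at least 3 cytosines shared by the 4 bulk libraries were averaged and tested by Fisher's exact test. A promoter was placed where at least 8 cytosines matched its CpG pattern without conflict and at least 1.5 times as many as elsewhere, which placed 10694 of 32851 promoters. In a test on simulated data 109 of 200 planted promoters were placed, all at the right place, and 0 of 193 absent ones. Clones were compared by an exact two-sided permutation test. Nothing says whether clones came from separate animals, so p-values measure only the spread between these samples.

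All pathway genes are named by list, nearest-pattern genes by the 3 smallest distances per member, and Oga was matched by its older symbol Mgea5. The members and lists were chosen with earlier results of these data known. The check of the targeted gene is not reported here. Alternatives covered pseudocount, scaling, filters, averaging, coverage, single clones and clone pairing. The work used Python 3.11.15, numpy 2.4.6, scipy 1.17.1, pandas 2.3.3 and numba 0.67.0.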

Additional observations from a re-analysis of the deposited data

How the results depend on the processing

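Of 120 recomputed member differences, 30 results under 4 settings of pseudocount and scaling, 117 kept direction and side of the 2-fold limit. The other 3 were the Tet1 difference of reprogramming changes, at −0.72 with a pseudocount of 5, −0.90 with upper-quartile and −0.88 with median-of-ratios scaling. With a pseudocount of 5 the background counts were 2058 genes higher at 3 weeks under the AID-null label, 206 higher and 49 lower between the labels in fibroblasts, 820 and 967 between them at 3 weeks, and 851 and 1110 for the difference of changes. With at least 5 FPKM the fibroblast counts were 355 and 76. Pathway list counts moved by over 1.5 times in 8 of 50 cases with a pseudocount of 5, 6 of 50 with upper-quartile and 7 of 50 with median-of-ratios scaling.

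The RRBS change under the Wildtype label was −9.49 points by cytosine, −5.78 and −5.36 in reads pooled over cytosines and tiles, −14.8 with coverage of at least 20, −15.2 on all chromosomes, −13.0 with at least 5 cytosines per tile and −14.7 over tiles of all 10 libraries. Under the AID-null label the same settings gave −5.0, −7.17, −6.73, −7.13, −7.21, −6.95 and −6.94 points. The difference between the labels was 4.49, 7.71, 8.00, 6.09 and 7.78 points in the unpooled settings and turned to −1.39 and −1.37 points in the pooled ones. The cause of the turn was not tested. With at least 5 cytosines per tile 18247 tiles were lower and 1075 higher under the Wildtype label, and 6917 and 993 under the AID-null label. At a difference of at least 40 points these were 9886 and 484, and 3160 and 330.

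Leaving out 1 clone each, the promoter difference AID-null minus Wildtype ranged from −0.102 to 0.716 points for Tet1, −0.0770 to −0.0082 for Tet2, 0.0432 to 0.406 for Tet3, −0.0074 to 0.453 for Gadd45a, −0.755 to 0.310 for Gadd45b and −0.0635 to 0 for Gadd45g. The sign turned for Tet1 and Gadd45a without AID-null clone 1 and for Gadd45b without Wildtype clone 3. Same-numbered clones did not deviate together (r of 0.017, −0.018 and 0.053 over 108306 tiles). The numbers thus gave no sign of a pairing, which such a check cannot exclude. With the clone number as a replicate block, the Tet1 difference was 0.443 points with an exact permutation p of 1, where the smallest possible is 0.25, and no promoter passed. RNA had 1 library per state, and no paired analysis was possible there because the groups share a single number.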
